A study of Canis lupus familiaris with 30 samples.

Results

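The matrix proteases and their inhibitors described here are the genes whose symbol is MMP, TIMP, ADAM, ADAMTS or ADAMTSL followed by a number and nothing else. The rule used the symbol alone and found 68 members among 30424 genes, of which 15780 carried a symbol. Their RNA was measured by sequencing in 30 primary thyroid carcinomas of pet dogs, 1 library per tumor, from total RNA depleted of ribosomal RNA. GEO's labels describe every sample as tumor tissue of the thyroid gland and give no genotype, treatment, age or tumor class. The study describes follicular and medullary carcinomas, which arise from hormone-producing follicular cells and from calcitonin-producing C cells, but the labels used here do not say which tumor is which, so the 30 tumors form 1 group and no comparison of the classes was made. Tumors are named by their library names.

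Matrix metalloproteinases (MMPs) are zinc-dependent enzymes that cleave collagens, gelatins, proteoglycans and other matrix proteins, and most are secreted as inactive precursors or are anchored in the cell membrane. ADAMs are membrane proteins with a disintegrin and a metalloprotease domain, and several of them release growth factors, cytokines and receptors from the cell surface. ADAMTS enzymes are their secreted relatives with thrombospondin repeats, the ADAMTSL proteins share those repeats but lack the protease domain, and TIMPs are the tissue inhibitors that bind the active site of MMPs and of some ADAM and ADAMTS enzymes. In carcinomas much of this RNA is known to come from stromal cells, that is fibroblasts, vessel cells and leukocytes, as well as from the tumor cells.

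The total count per tumor ranged from 12288945 to 45148677, with a median of 25569678. TC538 had the lowest total, and its size factor, the number by which its counts were divided to set tumors on 1 scale, was 0.279, when the next lowest was 0.713 and the highest 1.62. This smallest library held the highest level of 20.0% of all genes that passed the count filter. The 8 markers of follicular cells, among them thyroglobulin (TG), all passed the count filter, and their mean level ran from 3.31 in TC1088 through a median of 12.33 to 15.02 in TC1869. TC1088 stood apart, with a TG level of 3.70 against a median of 18.31 over all tumors. The 6 of 7 C cell markers that passed the filter had a mean level from 1.34 to 14.97 with a median of 3.92. A clustering of all tumors on 761 variable genes, with the members left out, placed 25 tumors on 1 branch and TC1020, TC1473, TC1601, TC1936 and TC2289 on the other. The mean level of the C cell markers was 14.51, 12.58, 13.60, 14.97 and 11.04 in those tumors, in the same order. Among the 25 tumors it was 8.67 at most, in TC22. Since separate clusters forbid a pooled coefficient, correlations are given within the 25 tumors, except where all 30 tumors were ranked within their own branch as an alternative, and the branches were not compared.

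Of the 68 members, 62 had at least 10 counts in at least 5 tumors, which is 91.2%, and 29 had at least 10 counts in every tumor. The same filter passed 61.5% of all genes and 86.2% of the genes with a symbol, so the members' share lay close to that of other genes with a symbol. The 6 members below the filter were the collagenases MMP1 and MMP8, MMP20 of tooth enamel, MMP27, ADAM7, and ADAM23, a member without a protease site that is known from brain. Each of MMP1, MMP8, MMP20 and ADAM23 reached 10 counts in 4 tumors, MMP27 reached it in 1 tumor and ADAM7 in none. The highest raw counts of those members were 104 for MMP1, 92 for MMP8, 83 for MMP20, 98 for MMP27, 132 for ADAM23 and 4 for ADAM7.

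The members varied more from tumor to tumor than the usual gene. On the level scale, log2 of the scaled count plus 1, the median of the members' standard deviations over the 30 tumors was 1.48, beside 0.95 over all genes that passed the filter. An SD above that background median was found in 54 of the 62 members. The range ran from 0.41 for ADAM17 to 2.82 for ADAMTS18. These SDs, and the ranges over all tumors given below, cover both branches of the clustering and are not the spread within either branch. This comparison is a description without a test, and levels are not compared between genes because no transcript lengths were used.

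**Figure D1:**
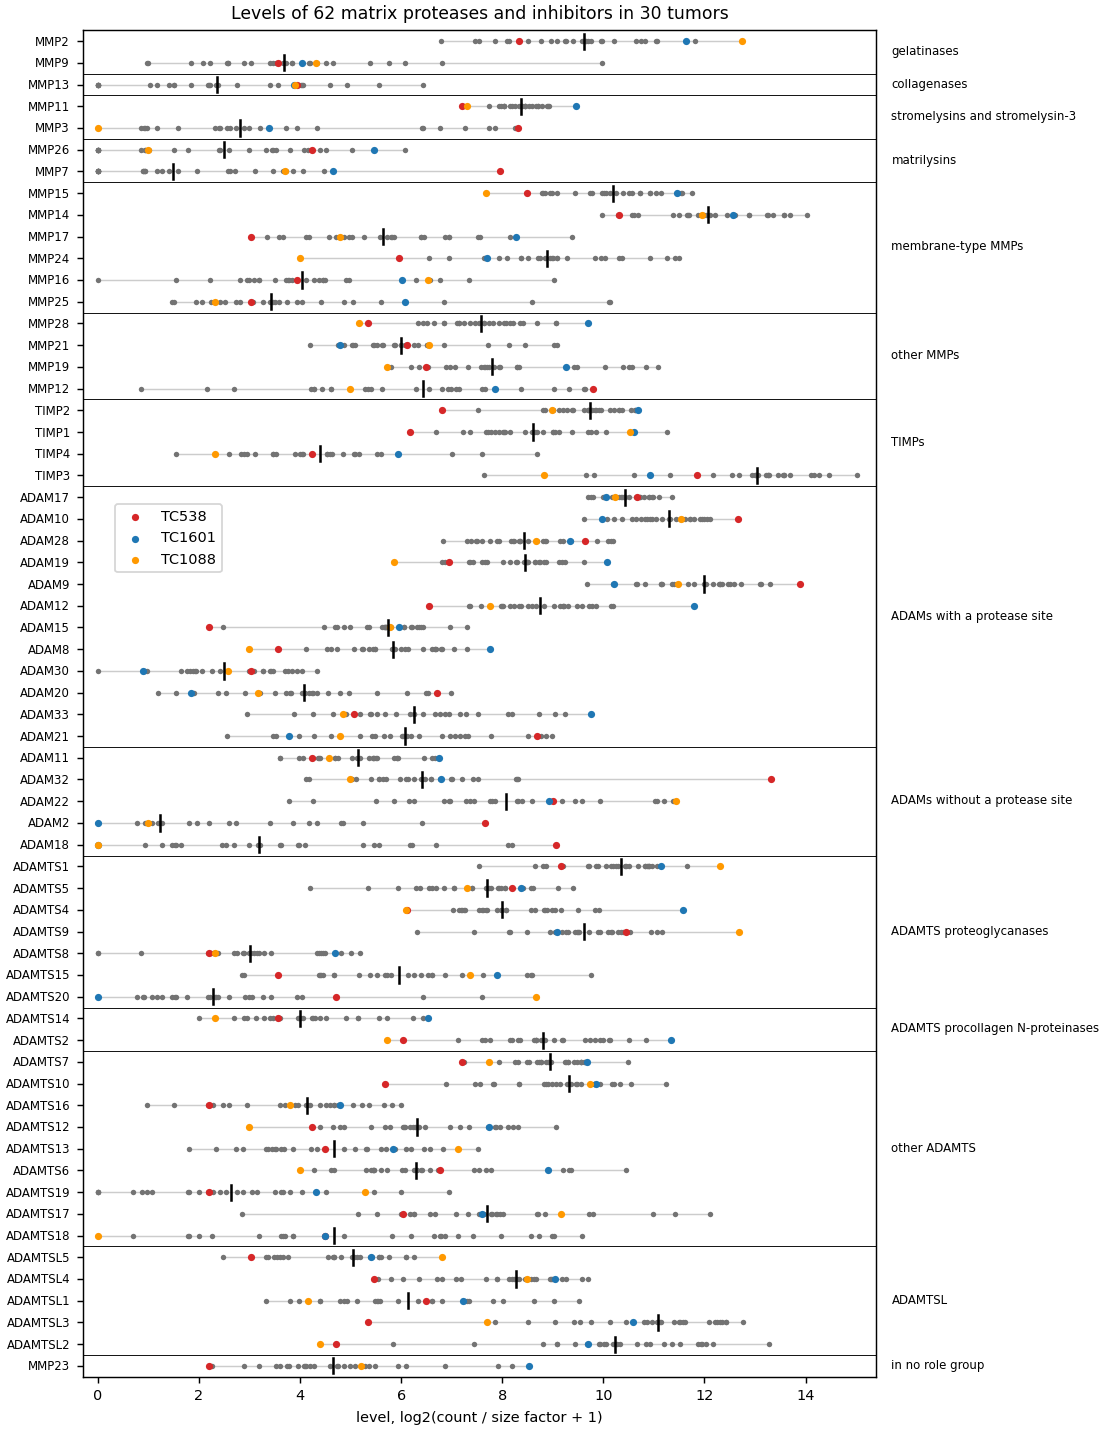
Level of each of the 62 members that passed the count filter (rows, grouped by role and ordered by SD) in each of 30 tumors (points), as log2(count / size factor + 1); black ticks are medians and grey lines span the lowest to the highest tumor. TC538, TC1601 and TC1088 are coloured; ADAM32 shows the widest gap, with TC538 at 13.31 and the next tumor at 8.31.

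Among the gelatinases, which digest denatured and basement membrane collagen, MMP2 had at least 10 counts in all 30 tumors. Its level was 6.79 in TC627, 9.61 at the median and 12.75 in TC1088, and the next highest tumor, TC2089, was at 11.82. The values of MMP2 therefore formed a continuous range with an SD of 1.39. MMP9, the gelatinase of neutrophils, macrophages and osteoclasts, was scarcer, with at least 10 counts in 18 tumors. Its level was 0.97 in TC640, 3.69 at the median and 9.97 in TC1994, where 716 reads were counted. The next tumor, TC1869, was at 6.80, so that TC1994 lay 3.18 above every other tumor. TC1994 also carried the highest mean level of the osteoclast markers, at 9.69 against a median of 6.15, and of the macrophage markers, at 9.88 against 8.27. Of the 4 osteoclast markers in that mean, DCSTAMP and CTSK were highest in TC1994, ACP5 ranked 2nd and OCSTAMP 3rd with 22 counts. OSCAR, which did not pass the filter and is not in the mean, ranked 3rd with 4 counts. The neutrophil markers had a mean level of 6.46 there against a median of 5.31, below their highest mean of 7.31 in TC1601. The mean of the osteoblast and cartilage markers was also highest in TC1994, at 6.76 against a median of 5.79, with TC1020 at 6.76 too. Of the markers in that mean, ALPL ranked 2nd in TC1994, while COL2A1, DMP1, ACAN, PHEX and SP7 all ranked below 3rd there. IBSP of that list, which did not pass the filter and is not in the mean, was at 8.81 in TC1994 and 4.98 in the next tumor. The part of these cell types in the MMP9 value was not tested.

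Of the collagenases, which cut intact fibrillar collagen, MMP13 alone passed the filter. It was at 0 counts in 5 tumors, 2.35 at the median and 6.43 in TC902. Stromelysin-3, MMP11, is an enzyme of carcinoma stroma and was among the steadiest members, between 7.20 in TC1473 and 9.46 in TC1601 with a median of 8.38 and an SD of 0.51. Stromelysin-1, MMP3, which cleaves proteoglycans and activates other MMPs, had an SD of 2.66. It was at 0 counts in 3 tumors, 2.82 at the median and 8.32 in TC538. The matrilysins are small MMPs of epithelia. MMP26 ran from 0 counts in 6 tumors through a median of 2.51 to 6.08 in TC67, and MMP7 from 0 counts in 7 tumors through 1.49 to 7.96 in TC538, where 69 reads were counted.

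All 6 membrane-type MMPs passed the filter. MMP14, the membrane enzyme that activates proMMP2 together with TIMP2, had 355 or more counts in every tumor, with levels of 9.97 in TC2289, 12.07 at the median and 14.02 in TC812. Its relative MMP15 lay between 7.67 in TC1088 and 11.75 in TC1241 with a median of 10.19 and had the smallest SD of the membrane-type enzymes, 1.07. The largest, 2.29, belonged to MMP25, a lipid-anchored enzyme known from leukocytes. MMP25 was at 1.46 in TC1869, 3.43 at the median and 10.14 in TC815, and TC1241 was at 10.11. Among the remaining MMPs, the macrophage elastase MMP12 ranged from 0.85 in TC1979, a single read, through 6.43 to 9.79 in TC538, and MMP19 from 5.72 in TC1088 through 7.79 to 11.08 in TC22.

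The 4 TIMPs all passed, and they differed in how far they varied. TIMP2 was the steadiest, at 6.81 in TC538, 9.73 at the median and 10.68 in TC1601, with an SD of 0.87. TIMP1 ranged from 6.18 in TC538 through 8.61 to 11.25 in TC1241 with an SD of 1.17. TIMP3, the matrix-bound inhibitor that also blocks ADAM17 and ADAMTS4, had the largest SD of the 4, 1.75. Its level was 7.63 in TC2289, 8.83 in TC1088, 13.04 at the median and 15.01 in TC1744, which is 154 raw counts in TC2289 and 35337 in TC1744. TIMP4 was the scarcest inhibitor in counts, with at least 10 counts in 22 tumors, and ran from 1.55 in TC640 through 4.38 to 8.68 in TC1744. TC538, the smallest library, was the lowest tumor for both TIMP1 and TIMP2, on 20 and 31 counts.

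The ADAMs with a protease site held the member with the smallest SD, ADAM17, and the one with the third smallest, ADAM10. ADAM17, the enzyme that sheds tumor necrosis factor and ligands of the EGF receptor, stayed between 9.70 in TC1869 and 11.35 in TC1473 with a median of 10.43. ADAM10, the other main sheddase, ranged from 9.61 in TC1979 through 11.30 to 12.67 in TC538 with an SD of 0.72. ADAM28, an ADAM of lymphocytes and epithelia, had an SD of 0.91 around a median of 8.43, and ADAM19 an SD of 0.92 around 8.46. ADAM9 lay between 9.68 in TC812 and 13.89 in TC538 with a median of 12.00. ADAM15 had a median of 5.74, and the tumors TC538 and TC1473 were far below it at 2.20 and 2.47. The ADAMs without a protease site bind other cells or ion channels. ADAM22, the receptor of LGI1 at synapses, ran from 3.79 in TC812 through 8.07 to 11.44 in TC1088, and TC2289 and TC1473 were close behind at 11.38 and 11.19. ADAM2 and ADAM18, which act in fertilization, had SDs of 2.17 and 2.56, with 0 counts in 9 and 4 tumors and their highest levels, 7.66 and 9.06, in TC538. ADAM11, by contrast, stayed between 3.60 and 6.74.

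The ADAMTS proteoglycanases cut aggrecan and versican. ADAMTS1 was at 7.54 in TC2289, 10.36 at the median and 12.31 in TC1088, and ADAMTS9 ranged from 6.31 in TC2289 through 9.62 to 12.68 in TC1088. ADAMTS4 lay between 6.10 in TC1088 and 11.58 in TC1601 with a median of 7.99, and ADAMTS5 between 4.20 in TC812 and 9.40 in TC1994 with a median of 7.71. ADAMTS20 was at 2.27 at the median and reached 10 counts in 5 tumors, with 8.66 in TC1088. The procollagen N-proteinases trim the amino end of fibrillar procollagens. ADAMTS2 ranged from 5.72 in TC1088 through 8.80 to 11.34 in TC1601, and ADAMTS14 from 2.01 in TC1241 through 4.00 to 6.54 in TC1601. ADAMTS3 was not analysed here. Of the other ADAMTS enzymes, ADAMTS18 had the largest SD of any member, with 0 counts in TC640 and TC1088, 4.68 at the median and 9.57 in TC812. ADAMTS7 was steady at 7.21 to 10.48 with an SD of 0.73, while ADAMTS10, an enzyme linked to fibrillin microfibrils, ran from 5.68 in TC538 through 9.32 to 11.24 in TC1869. In the ADAMTSL group, ADAMTSL2 was at 4.39 in TC1088, 10.23 at the median and 13.28 in TC1869, and ADAMTSL3 at 5.34 in TC538, 11.09 at the median and 12.77 in TC902.

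To ask which members varied with the stroma, the vessels, macrophages, dividing cells or follicular differentiation, each gene's level was correlated with 5 marker scores over the 25 tumors. To make a score, the median of each listed marker was subtracted from its level and the differences were averaged. Spearman's rho was computed for every gene that passed the filter, with two-sided p-values from 100000 permutations, the smallest of which is 1e-05, and Benjamini-Hochberg adjustment over all genes tested. A member was called at an adjusted p below 0.05. In bulk tissue, fewer cells of a type and less RNA per cell cannot be told apart.

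The fibroblast score, from 9 genes such as COL1A1, DCN and PDGFRB, gave 4 called members of 62, all with positive rho. That is 6.45% of the members, beside 0.583% of all genes tested and 0.572% called with a positive rho. An unadjusted permutation p below 0.05 was found for 18 of 62 members, 29.0%, and for 9.58% of all genes. The called members were 2 proteoglycanases and 2 ADAMs of mesenchymal cells. The aggrecanase ADAMTS5 had a rho of 0.76 by permutation (n = 25, adjusted p = 0.01) and an r of 0.73. ADAMTS4, the second aggrecanase, had a rho of 0.72 by permutation (adjusted p = 0.0193) and an r of 0.65. ADAM12, known from activated fibroblasts, had a rho of 0.71 by permutation (adjusted p = 0.0327) and an r of 0.67. ADAM19 had a rho of 0.70 by permutation (adjusted p = 0.037) and an r of 0.68. When the tumors farthest from the median score, TC640 and TC1241, were left out, r was 0.68 for ADAMTS5, 0.63 for ADAMTS4, 0.62 for ADAM12 and 0.76 for ADAM19.

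Within the 25 tumors ADAMTS5 was lowest in TC812 and TC640, at 4.20 and 5.34, where the fibroblast score was -2.53 and -3.29. Its highest level, 9.40, was in TC1994 with a score of 1.44, followed by 9.10 in TC2089 with the highest score, 2.29. In these tumors low values of ADAMTS5 went with low scores and high values with high scores. Other tumors departed from this, such as TC1088 at 7.30 with a score of -3.02 and TC22 at 6.56 with a score of 0.18. ADAM12 was lowest in TC538, at 6.56, and ADAMTS4 in TC1088 and TC538, at 6.10 and 6.11. The calls depended in part on TC1088. Without it 2 members were called, ADAMTS5 and ADAMTS19, and the rho of ADAMTS4, ADAM12 and ADAM19 was 0.69, 0.69 and 0.68 by permutation, with adjusted p-values of 0.0579, 0.0557 and 0.058. With Pearson's coefficient in place of ranks 2 of the 4 were called, ADAMTS5 and ADAM19. The edgeR quasi-likelihood test with the score as a covariate called 6 members, namely ADAMTS5, ADAMTS4, ADAM12, ADAMTS14 and MMP9 with positive slopes and ADAMTS20 with a negative one, but not ADAM19. Of the 25 tumors only TC1088 and TC1164 reached 10 counts of ADAMTS20, at 404 and 11. ADAMTS20 passed the filter only with TC1020, TC1473 and TC2289 of the other branch. MMP9 was highest in TC1994, on 716 reads, with 126 in TC1869 next. edgeR was not repeated without these tumors, and the share of all genes it called is not given.

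Other members expected from their biochemistry to accompany fibrillar collagen had positive coefficients that missed the threshold. ADAMTS2 and ADAMTS14 each had a rho of 0.62 by permutation, with adjusted p-values of 0.12 and 0.113. MMP11 and MMP2 were not called either. In the whole list 49 of 62 members had a rho above 0, with a median of 0.19, while the median over all genes was 0.00. None of the 26 related genes of extracellular proteolysis was called with this score. Their largest rho values were 0.52 for the lysosomal protease CTSD, 0.52 for the inhibitor TFPI2 and 0.51 for urokinase, PLAU, with adjusted p-values by permutation from 0.293 to 0.308.

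The endothelial score, from 8 genes such as PECAM1, CDH5 and VWF, gave 7 called members of 62, again all with positive rho. This is 11.3% of the members, beside 4.92% of all genes and 3.27% called with a positive rho. An unadjusted permutation p below 0.05 was found for 21 of 62 members, 33.9%, and for 24.3% of all genes. ADAMTS12, a secreted protease that cleaves cartilage oligomeric matrix protein, had the highest rho of any member with any score, 0.90 by permutation (n = 25, adjusted p = 0.00116), and an r of 0.91. ADAM19 followed with a rho of 0.82 by permutation (adjusted p = 0.00116), and TIMP4 with 0.73 (adjusted p = 0.00504). The other 4 were ADAM11 with a rho of 0.68, ADAMTS4 and ADAMTS7 with 0.66 each and ADAMTSL1 with 0.62, at adjusted p-values by permutation between 0.0114 and 0.033. Without TC538 and TC1088, the tumors farthest from the median score, r was 0.88 for ADAMTS12, 0.79 for ADAM19, 0.71 for TIMP4, 0.72 for ADAM11, 0.58 for ADAMTS4, 0.53 for ADAMTS7 and 0.66 for ADAMTSL1.

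Over the 25 tumors ADAMTS12 was at 3.00 in TC1088 and 4.24 in TC538, 6.27 at the median, and 8.32 in TC1979 and 9.07 in TC1744. The endothelial scores of those tumors were -1.51, -1.56, 1.09 and 0.75 in the same order. The tumors lowest in ADAMTS12 thus had the lowest scores, while the highest score, 1.28, was in TC22 and not in TC1744. ADAM19 was lowest in TC1088 at 5.85 and highest in TC1994 at 9.25. TIMP4 was lowest in TC640 at 1.55, where the score was -1.28, and stood out in TC1744, TC1123 and TC1994 at 8.68, 7.59 and 7.01. ADAM19 and ADAMTS4 were called with both the endothelial and the fibroblast score, and the scores themselves had a rho of 0.53 with each other.

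**Figure D2:**
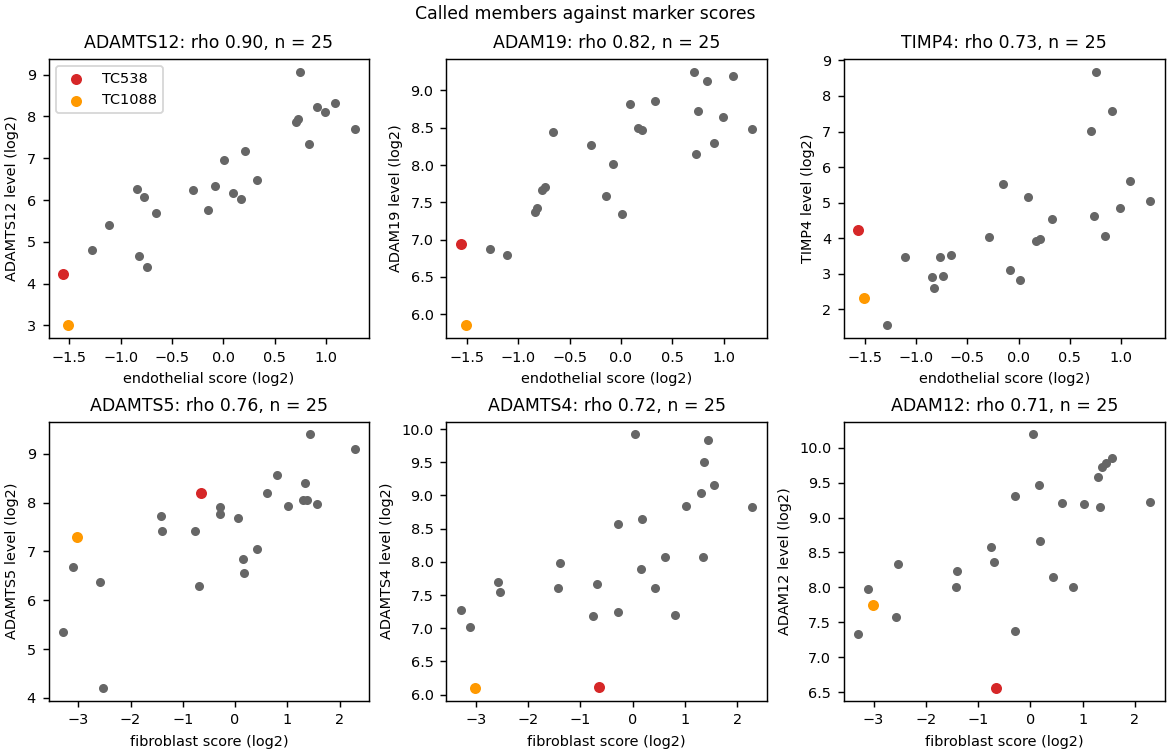
Level of 6 called members (y axes, log2 of the scaled count plus 1) against the endothelial score (upper row) or the fibroblast score (lower row), both in log2 units; each point is 1 of 25 tumors. ADAMTS12 follows the endothelial score most closely, with a rho of 0.90, and TC538 (red) and TC1088 (orange) sit at the low end of that score.

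Sequencing depth moved with this score. The rho of the endothelial score with the total count was 0.49, and that of ADAMTS12 with the total count was 0.53, while ADAM19 and TIMP4 were at 0.16 and 0.12. When the rank of the total count was regressed out of both sides, ADAM19, ADAMTS12 and TIMP4 were still called, with coefficients of 0.86, 0.86 and 0.78 and adjusted p-values by permutation of 0.00136, 0.00136 and 0.00234. ADAM11, ADAMTS4, ADAMTS7 and ADAMTSL1 were not called after that step, with coefficients of 0.57, 0.60, 0.56 and 0.61 and adjusted p-values by permutation of 0.0997, 0.0677, 0.117 and 0.0697. Without TC538 the calls were ADAMTS12, ADAM19, TIMP4, ADAM11 and ADAMTSL1, and without TC1088 ADAMTSL1 was not called, with a rho of 0.59 by permutation (adjusted p = 0.067). MMP16, MMP23 and ADAMTSL5 were called in addition without TC1088, with a rho of 0.63, 0.63 and 0.65 by permutation (adjusted p = 0.039, 0.0406 and 0.0308). Among the related genes 1 of 26 was called, PAPLN, which encodes papilin, a matrix protein with ADAMTS-like repeats, with a rho of 0.86 by permutation (adjusted p = 0.00116). BMP1, the procollagen C-proteinase, had a rho of 0.54 by permutation (adjusted p = 0.0766).

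The macrophage, proliferation and follicular cell scores gave no called member by the permutation test of Spearman's rho. For the macrophage score, from 8 genes such as CD68 and CD163, 0.348% of all genes were called. An unadjusted p below 0.05 was found for 9 of 62 members, 14.5%, and for 5.99% of all genes. The highest coefficients were 0.62 for ADAMTS5 and 0.58 for ADAM12 by permutation, with adjusted p-values of 0.182 and 0.284. The macrophage elastase MMP12 had a rho of 0.51 by permutation (adjusted p = 0.541), and its r of 0.42 was 0.29 without TC1994 and TC1123. ADAM12 passed the threshold with TMM scaling and when TC538 was left out, with a rho of 0.73 by permutation (adjusted p = 0.0208). The edgeR quasi-likelihood test with the score as a covariate called 2 members, MMP9 with a positive and ADAMTS20 with a negative slope.

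With the proliferation score, from 7 measured genes such as MKI67 and TOP2A, 0.0267% of all genes were called, and an unadjusted p below 0.05 was found for 10 of 62 members, 16.1%, and for 8.2% of all genes. ADAM17 had a rho of 0.68 by permutation (p = 0.00022, adjusted p = 0.129) and MMP15 one of -0.58 (adjusted p = 0.328). edgeR called no member with this score. ADAM17 was called when all 30 tumors were ranked within their branches, with a coefficient of 0.68 by permutation (adjusted p = 0.0364). With the follicular cell score 0.203% of all genes were called, and the unadjusted p was below 0.05 for 10 of 62 members, 16.1%, and for 11.0% of all genes. TIMP3 had a rho of 0.53 by permutation (adjusted p = 0.218) and an r of 0.80, which was 0.54 without TC1088 and TC815. ADAMTS20 had a rho of -0.54 by permutation (adjusted p = 0.218) and an r of -0.80, which was -0.40 without those tumors. TC1088 had a follicular cell score of -9.41, when the next lowest of the 25 tumors was at -2.63. edgeR called 5 members with this score, TIMP3 with a positive slope and ADAMTS1, ADAMTS9, ADAMTS20 and MMP2 with negative slopes. The share of all genes that edgeR called is not given, so these 5 are not set against a background. The 0.203% above belongs to the permutation test. ADAMTS1, ADAMTS9, ADAMTS20 and MMP2 were all at their highest in TC1088, and edgeR was not repeated without that tumor. None of the related genes was called with these 3 scores.

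**Figure D3:**
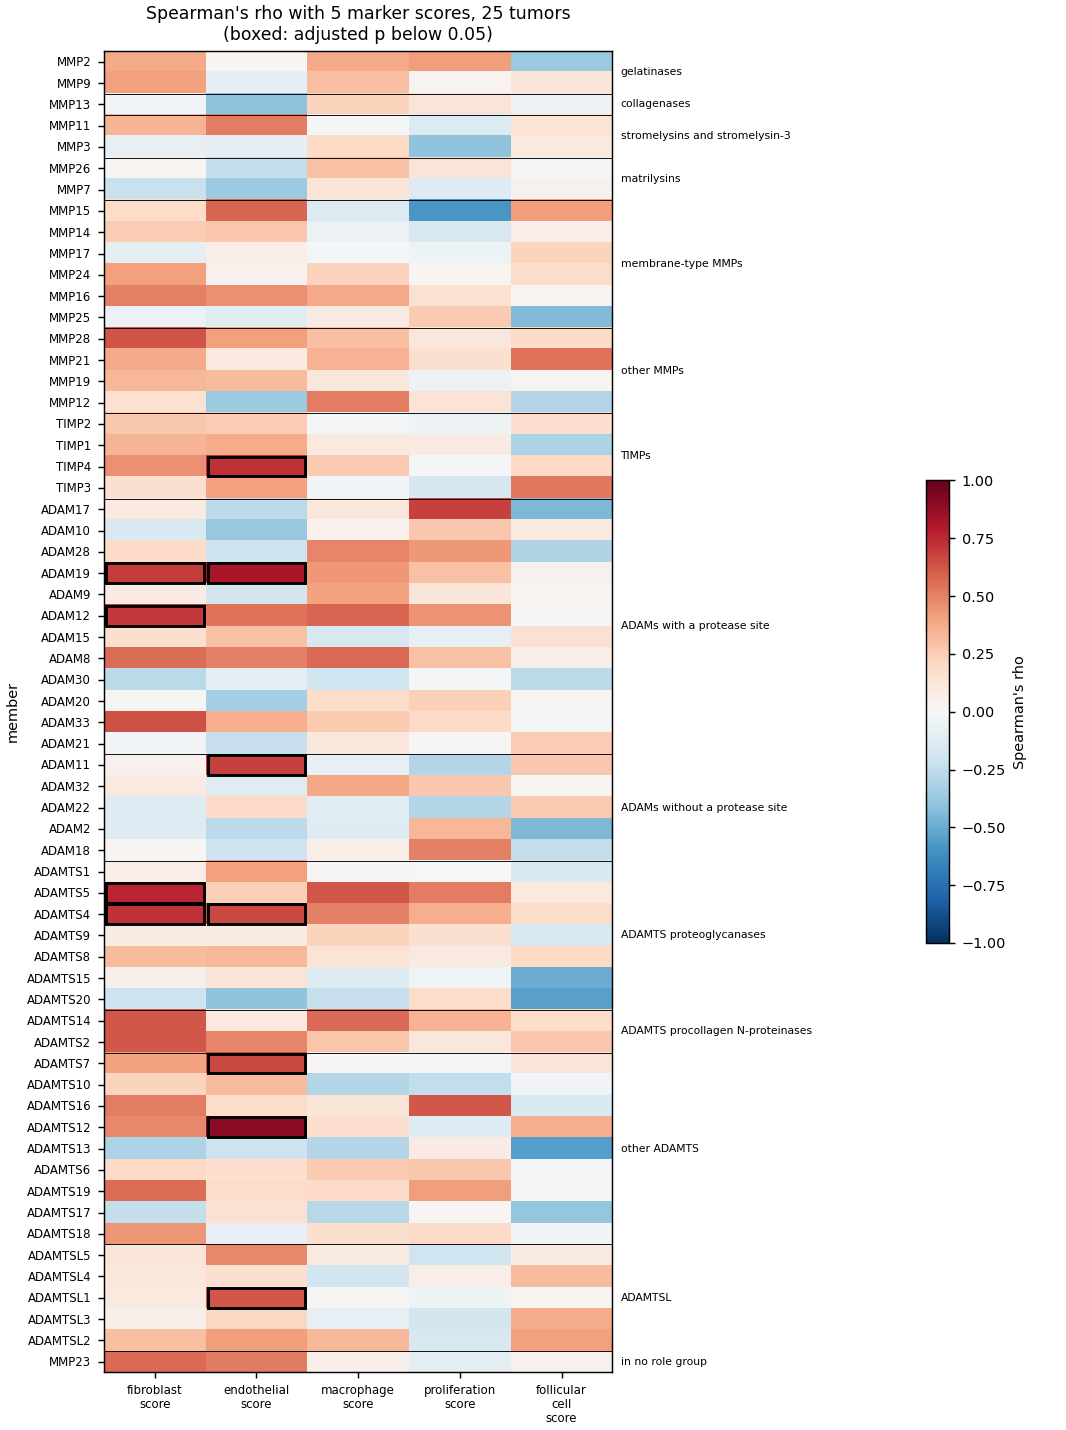
Spearman's rho of each of 62 members (rows, grouped by role) with 5 marker scores (columns) over 25 tumors; red is positive, blue negative, and boxes mark adjusted p below 0.05. The 11 boxes are 4 members with the fibroblast score and 7 with the endothelial score, and all are positive.

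A further question was whether enzymes known to act on one another, inhibitors with their targets, and close relatives varied together. Of 22 such pairs, 20 had both genes past the filter and were tested over the 25 tumors, with adjustment over the 20 pairs. ADAMTS2 with ADAMTS3 and ADAM22 with ADAM23 could not be tested. The 3 pairs called joined close relatives, and all were positive. ADAMTS7 and ADAMTS12, which share a domain layout and substrates, had a rho of 0.61 and an r of 0.69 by permutation (adjusted p = 0.0325). The membrane-type enzymes MMP14 and MMP15 had a rho of 0.58 and an r of 0.55 by permutation (adjusted p = 0.0325). ADAMTS2 and ADAMTS14, the procollagen N-proteinases, had a rho of 0.54 and an r of 0.58 by permutation (adjusted p = 0.0407). Leaving out the tumors farthest from the median of the first gene gave r values of 0.63, 0.46 and 0.55 in the same order. Over all 1891 pairs of passing members the median rho was 0.06. Pairs outside the 22 reached higher values than the called ones, such as 0.71 for MMP14 with MMP19 and 0.67 for ADAMTS2 with ADAM19. Coefficients of this size were therefore not particular to the listed relatives.

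**Figure D4:**
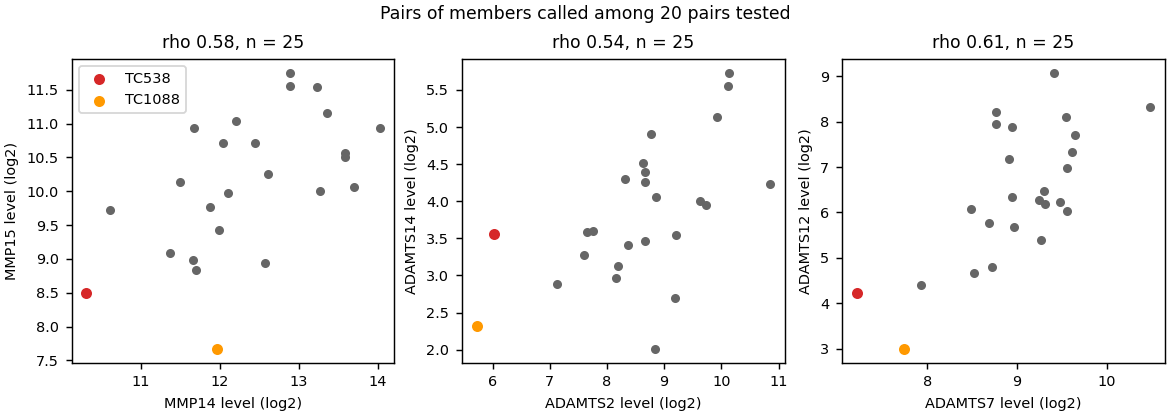
Levels (log2 of the scaled count plus 1) of the 3 called pairs of members, 1 point for each of 25 tumors. In each panel the points rise from lower left to upper right, with rho of 0.58, 0.54 and 0.61, and TC538 (red) is lowest or second lowest for every gene plotted except ADAMTS14, at 3.56 against a median of 3.60.

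TC538 was low for 5 of the 6 genes in the called pairs. MMP14 and ADAMTS7 were at their lowest of the 25 tumors there, at 10.31 and 7.21, and MMP15, ADAMTS2 and ADAMTS12 at their second lowest. ADAMTS14, at 3.56 in TC538, was near its median of 3.60 over the 25 tumors. Without TC538 no pair was called, and the rho of each was 0.53 for MMP14 with MMP15, 0.55 for ADAMTS2 with ADAMTS14 and 0.56 for ADAMTS7 with ADAMTS12, each at an adjusted p by permutation of 0.0607. Without TC1088, ADAMTS2 with ADAMTS14 was not called, with a rho of 0.49 by permutation (adjusted p = 0.0637). No pair was called either with total count regressed out of the ranks or with the fibroblast score regressed out. With total count out, the coefficients were 0.52 for MMP14 with MMP15, 0.54 for ADAMTS2 with ADAMTS14 and 0.48 for ADAMTS7 with ADAMTS12, at adjusted p-values by permutation of 0.0509, 0.0509 and 0.0803. With the fibroblast score out, the coefficient of ADAMTS2 with ADAMTS14 was 0.25, while those of MMP14 with MMP15 and ADAMTS7 with ADAMTS12 were 0.56 and 0.52.

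The activation partners MMP2 and MMP14 had a rho of 0.47 and an r of 0.41 by permutation (p = 0.0184, adjusted p = 0.0892). Without TC1088 the same pair had a rho of 0.53 by permutation (adjusted p = 0.0422). MMP14 and its partner TIMP2 had a rho of 0.37 by permutation (adjusted p = 0.17), and MMP2 with TIMP2 one of 0.19 (adjusted p = 0.495). MMP9 with its inhibitor TIMP1 was at 0.06 by permutation (adjusted p = 0.868). TIMP1 with TIMP2 had a rho of 0.44 by permutation (adjusted p = 0.0892), which was 0.57 without TC1088 (adjusted p = 0.0363), and the sheddases ADAM10 and ADAM17 one of 0.25 (adjusted p = 0.414). The TIMP3 targets ADAM17 and ADAMTS4 had coefficients of -0.21 and 0.31 with TIMP3 by permutation (adjusted p = 0.477 and 0.257). ADAM9 and ADAM15 were the only pair beyond -0.40, at -0.44 by permutation (adjusted p = 0.0892). The aggrecanases ADAMTS1 and ADAMTS5 had a rho of 0.00. These values do not show that the partners vary independently.

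Single tumors set the upper end of some members. A highest tumor more than 2 above the next, on the log2 scale, was seen in 3 of 62 members, 4.84%, beside 4.12% of all genes that passed the filter, so this share was near the background. They were MMP9 in TC1994, given above, and ADAM32 and MMP7 in TC538. ADAM32, a member without a protease site that is known from testis, was at 4.12 in TC812, 6.42 at the median, 8.31 in TC2289 and 13.31 in TC538. The gap was 5.00 on the log2 scale, and it rested on 2836 reads in the smallest library, more than the raw count of ADAM32 in any other tumor. For MMP7 the gap was 3.31 on 69 reads.

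TC538 held the highest level of 8 of the 62 members, 12.9%, which is below its 20.0% over all genes. All 8 were ADAM or MMP genes, and 7 of them lie in 2 chromosomal clusters in the order of the RefSeq gene table of the assembly UU_Cfam_GSD_1.0, a different build from the CanFam3.1 of the counts. The first cluster is ADAM18, ADAM2, ADAM32 and ADAM9, which follow one another. In TC538 they were 5.89, 6.47, 6.91 and 1.90 above the median of the other 29 tumors on the log2 scale. On either side, IDO1 was 2.91 and TM2D2 1.33 above that median and both were highest in TC538. Beyond IDO1, IDO2 was 2.96 above and ranked 2nd, and TCIM ranked 17th. Beyond TM2D2, HTRA4 ranked 7th, and NSD3, further out, was 1.33 above and ranked 2nd. The second cluster is the MMP genes around MMP3. MMP12, MMP3, MMP8 and MMP7 were highest in TC538, on 246, 89, 36 and 69 reads. They were 3.50, 5.58, 5.12 and 6.56 above the median of the others. The neighbours DCUN1D5 and DYNC2H1 were also highest there, at 4.10 and 2.58 above that median with 1547 and 4668 reads. Beyond MMP7, so were BIRC2 and CFAP300, at 1.22 and 2.83 above it with 797 and 387 reads. BIRC3 and YAP1, which lie between them, ranked 11th and 9th. MMP13 and MMP1 inside the same cluster ranked 9th and 3rd on 4 and 5 reads. The part of the small library in these values was not tested.

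**Figure D5:**
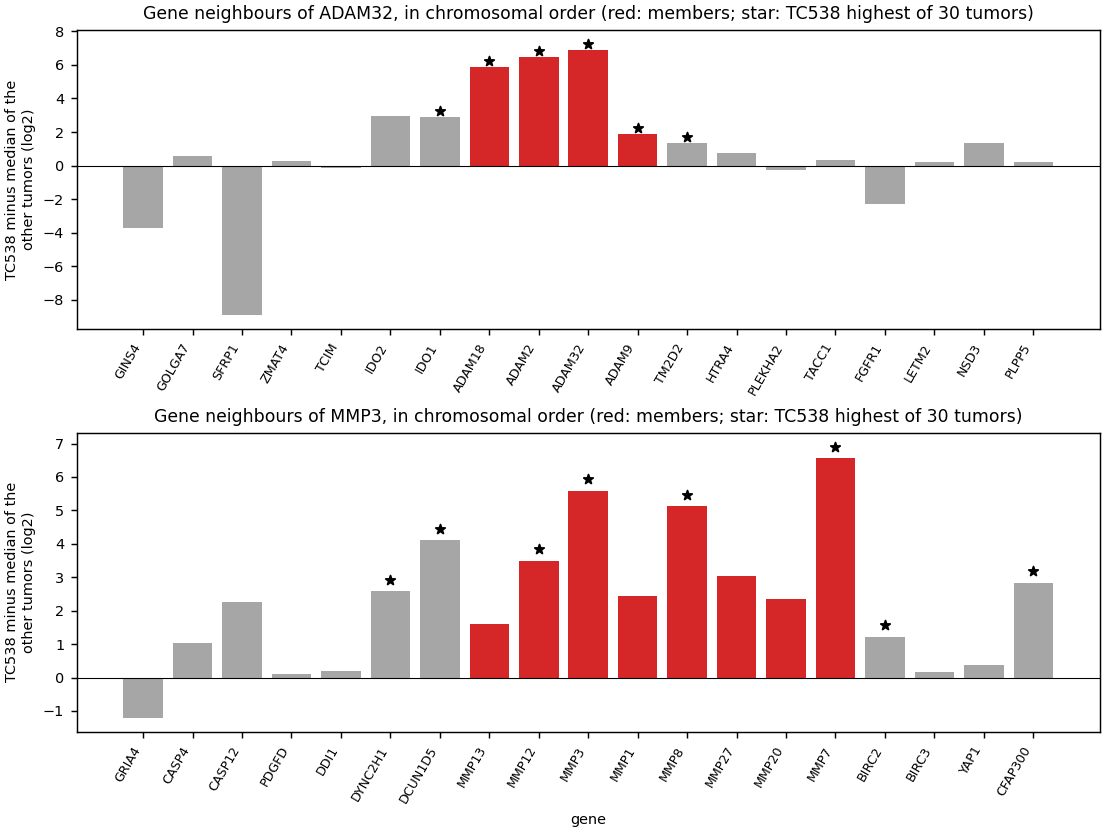
Difference between TC538 and the median of the other 29 tumors (y axis, log2) for the 9 genes on either side of ADAM32 (top) and MMP3 (bottom), in the gene order of UU_Cfam_GSD_1.0; red bars are members and stars mark genes at their highest in TC538. The difference is 6.91 at ADAM32 and 6.56 at MMP7, and SFRP1 had 0 counts in TC538.

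TC1601 was the highest tumor for the most members, 12 of 62 or 19.4%, beside 5.57% of all genes. This tumor was singled out after its values were seen. The 12 included ADAM12 at 11.80, ADAMTS4 at 11.58, ADAMTS2 at 11.34, ADAM19 at 10.07, MMP11 at 9.46, ADAMTS14 at 6.54 and TIMP2 at 10.68. Its mean level of the fibroblast markers, 12.88, was also the highest of the 30 tumors, and COL1A1, COL1A2, COL3A1, PDGFRB and THY1 of the 9 markers were at their highest there. The mean level of the neutrophil markers was highest in TC1601 too, at 7.31 against a median of 5.31. CSF3R and S100A8 of that list were at their highest there. So were CSF1R and C1QB of the macrophage markers. The mean of all macrophage markers was 8.81 in TC1601, against a median of 8.27 and a highest mean of 9.88 in TC1994. The part of these markers in the members' levels was not tested. TC1601 is not among the 25 tumors of the correlations, so the fibroblast calls above did not draw on it.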

How the data were processed

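RNA of 30 canine thyroid tumors was sequenced by the authors as paired-end libraries depleted of ribosomal RNA, aligned with STAR to CanFam3.1, and deposited as raw read counts per gene. Which strand setting was used is not given in the sources used here, so genes overlapping on opposite strands cannot be told apart. Reads of close paralogs such as ADAM20 and ADAM21 may not be fully told apart either. From the counts, levels were computed as log2(count / size factor + 1), with median-of-ratios size factors from 15611 genes with a count in every tumor. A gene was tested if 5 or more tumors had 10 or more counts of it (18711 of 30424). Depth was 12288945 to 45148677 counts per tumor, and no 2 tumors had identical counts. Nothing in the labels says more about how tumors relate, so the permutations treated each tumor as 1 exchangeable sample. The p-values apply to these samples.

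The 25 tumors came from cutting a Ward clustering into 2 branches, for which genes needed a variance over 6 and a mean level over 2. Correlations used 100000 permutations and Benjamini-Hochberg adjustment (numpy 2.4.6, scipy 1.17.1, pandas 2.3.3, Python 3.11.15), and edgeR 4.0.16 served as an alternative. The permutation test was checked on simulated counts. Named members are the called ones, those in tested pairs, the TIMPs and gelatinases, the 8 with the largest and the 8 with the smallest SD, those with a highest tumor more than 2 above the next, and the highest median of each role group; others named were chosen after their values were seen. MMP23 is in no role group. MMP10, ADAM29 and ADAMTS3 were not analysed here. The members, marker lists, pairs and tests were chosen with earlier results of these data known. RefSeq symbols matched 67 of the 68 members and gave gene order only.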

Additional observations from a re-analysis of the deposited data

How the results depend on the processing

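Of the 68 members, 62 passed the filter, with 52 and 68 under the stricter and the loosest one. The median SD of 1.48 was between 1.16 and 1.49 under its alternatives. The median over all genes under the same alternatives is not given, so these SDs are not set against a background. Members called with the fibroblast score numbered 4, but 2 without TC1088, 2 with Pearson's coefficient, 3 with no count filter, 5 with TMM scaling and 6 by edgeR, of which 3 were among the 4. The 7 called with the endothelial score became 13 with Pearson's coefficient, 15 by edgeR, 5 of them with negative slopes, and 3 with depth regressed out. For the macrophage score 1 member was called with TMM scaling, 1 without TC538 and 2 by edgeR. For the proliferation score 1 was called over all 30 tumors ranked within branches, and for the follicular cell score 5 by edgeR. The 3 called pairs became 7 over all 30 tumors ranked within branches and 8 with Pearson's coefficient, each time including the 3, and 0 without TC538, with depth regressed out or with the fibroblast score regressed out. The causes were not tested. The counts of members under the alternatives are given without the share of all genes called under the same alternative, so they are not set against a background. No called member or pair changed sign. ADAMTS5 with the fibroblast score and ADAMTS12, ADAM19 and TIMP4 with the endothelial score passed the threshold under all 11 alternatives each. No paired analysis was possible because the samples form 1 group. Members with few reads in TC538, whose size factor is 0.279, carry the widest counting error.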

Other observations

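The levels of some members fell into separate sets with a gap of more than 1.5 on the log2 scale and at least 2 tumors on either side. These values were picked after they were seen and were not tested. MMP3, stromelysin-1, lay between 6.41 and 8.32 in 8 tumors, namely TC2288, TC22, TC1241, TC1218, TC1869, TC640, TC1744 and TC538, and at 4.34 or lower in the other 22. MMP25 was at 8.58 in TC1164, 10.11 in TC1241 and 10.14 in TC815 and at 6.84 or lower elsewhere. ADAMTS20 was at 6.44 in TC2289, 7.59 in TC1473 and 8.66 in TC1088 and at 4.71 or lower elsewhere. At the other end, MMP12 was at 0.85 in TC1979, 2.16 in TC2011 and 2.70 in TC812 and at 4.21 or higher in the other tumors. ADAMTSL2, a regulator of TGF-beta availability, was at 4.39 in TC1088, 4.71 in TC538 and 5.83 in TC1936 and at 7.44 or higher elsewhere. The tumors of these sets differ from member to member.

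Over the 25 tumors the 1891 pairs of passing members had a median rho of 0.06, and 57.5% of the coefficients were positive. The highest, given as descriptions of pairs picked by size, were 0.87 for ADAMTS4 with ADAM12, 0.84 for ADAM12 with ADAM8 and 0.79 for ADAMTS4 with ADAM8. ADAM20 and ADAM21, adjacent relatives whose reads may not be fully told apart, were at 0.78. The lowest was -0.73, for ADAMTS15 with the sheddase ADAM10, and MMP14 with ADAM10 was at -0.59.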
